A study of Arabidopsis thaliana with 9 samples.

Results

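The genes described here are those that the plant's organelles encode for themselves, and they were taken as every entry of the count table whose identifier begins with ATMG (mitochondrial genome) or ATCG (chloroplast genome). There were 15 such genes among 10224, or 0.147% of the table, of which 13 were mitochondrial and 2 were chloroplast genes, against 10209 nuclear genes. The data came from yeast two-hybrid selection of preys out of a cDNA library of Arabidopsis thaliana, a method in which a bait protein and a library protein (the prey) each carry a piece of a split transcription factor, and only yeast in which both parts meet makes its own histidine. The bait was PKS5, SCAB1 or SOS2, where PKS5 and SOS2 are protein kinases that work with calcium sensors of the calcineurin B-like family, and SCAB1 is an actin-bundling protein. For every bait 3 libraries were sequenced, from yeast left to recover for 0, 2 or 4 h, and each was made from over 3000 colonies selected on medium without tryptophan, leucine and histidine that held 1 mM 3-AT, an inhibitor of the histidine enzyme used for selection. No library of unselected yeast is labelled, so the background of each bait was the libraries of the other baits. The 3 libraries of a bait share that bait and differ in recovery time, no label says that they came from separate screens, and the p-values therefore measure only the spread between these libraries.

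Mitochondria and chloroplasts keep small genomes of their own, which encode a few subunits of the respiratory and photosynthetic complexes and parts of the machinery that expresses them, while nuclear genes supply the other subunits. Organelle transcripts are made and translated inside the organelle, the plant's messages there mostly lack the long poly(A) tails on which many cDNA libraries are primed, and a prey protein in yeast is made outside any plant organelle. In Arabidopsis the nuclear chromosome 2 also holds a large insertion of mitochondrial DNA near its centromere, so that some genes exist in both places.

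None of the 15 identifiers was paired with a gene name in the count table or in the RefSeq gene table used here, so the genes are called by their identifiers, no function is given to them and no sequence is shown. RefSeq lists 33 protein-coding genes in the mitochondrial genome and 85 in the plastid genome of this plant under another system of identifiers. The counts below are sequencing reads of prey inserts next to vector sequence. They are given as CPM, the reads of a gene per 1e6 reads of its library. Libraries held 1640114 to 3288437 reads, and the most that a count of 0 allows, 3 reads, was 0.912 to 1.83 CPM. Reads are PCR copies, so that limit and all intervals cover counting error only.

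The organelle genomes held few of the reads, and nearly all of those were mitochondrial. Over the 9 libraries the 15 genes had 56115 of 20592229 reads, or 0.273%. The 13 mitochondrial genes had 56003 reads and the 2 chloroplast genes had 112, a ratio of 500.0. Within single libraries that ratio ran between 138 and 2258 with a median of 424. The mitochondrial share exceeded the chloroplast share in 9 of 9 libraries, by 0.270 percentage points on average (p = 0.00391, two-sided exact sign-flip permutation test over libraries, the smallest value that 512 arrangements allow). Without the leading gene of each genome, 12 mitochondrial genes with 1040 reads remained beside a single chloroplast gene with 5 reads, a comparison given as counts only. The genomes contribute different numbers of genes, 13 and 2, and the sums were not divided by gene number or gene length.

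Mitochondrial reads made up 0.0977, 0.0525 and 0.109% of the PKS5 libraries at 0, 2 and 4 h. They made up 0.445, 0.270 and 0.430% of the SCAB1 libraries and 0.218, 0.260 and 0.549% of the SOS2 libraries. All 3 PKS5 libraries lay below every library of the other baits, while those of SCAB1 and SOS2 overlapped. The lowest value, that of PKS5 at 2 h, had a 95% exact binomial interval of 0.0499 to 0.0551%, and the highest, SOS2 at 4 h, one of 0.541 to 0.557%.

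The chloroplast genome stood at 7.11, 0.661 and 4.31 CPM in PKS5, at 10.5, 2.62 and 4.27 CPM in SCAB1 and at 12.7, 8.19 and 2.43 CPM in SOS2, at 0, 2 and 4 h in each. These values overlapped between all baits. They rest on 2 to 28 reads per library, and the 95% exact binomial interval of the lowest, 2 reads, was 8e-06 to 0.000239% of the library's reads.

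**Figure D1:**
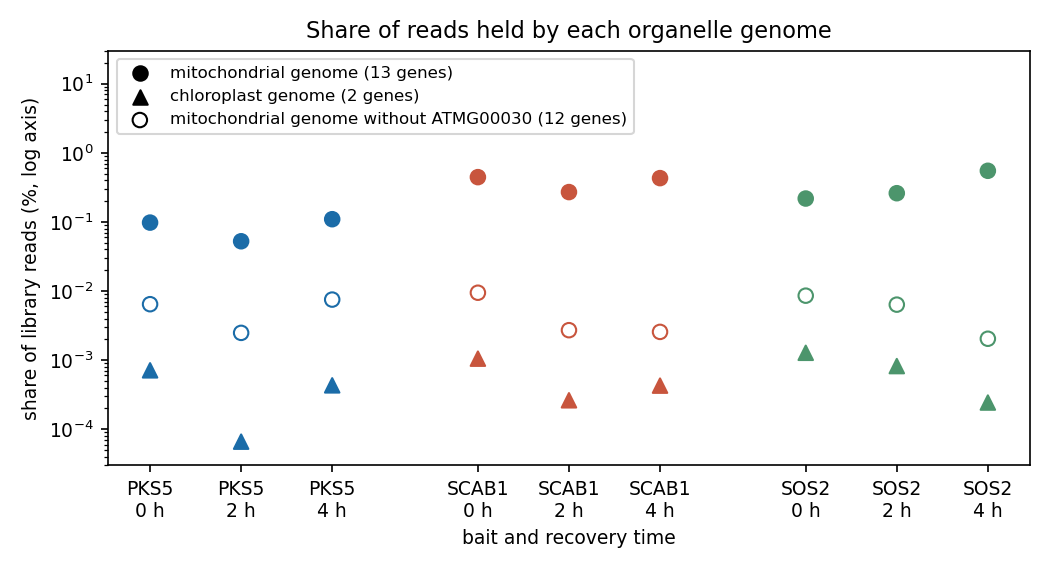
Share of library reads held by the mitochondrial genome (filled circles), the mitochondrial genome without its leading gene ATMG00030 (open circles) and the chloroplast genome (triangles), on a log axis in percent, for 9 libraries ordered by bait and recovery time; colours mark the baits and each symbol is 1 library. The filled circles of PKS5 lie between 0.0525 and 0.109%, below all others, while the open circles and triangles of the baits overlap.

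Taking both genomes together, the PKS5 libraries averaged 0.0870 ± 0.0304% of reads (SD, n = 3), the SCAB1 libraries 0.382 ± 0.0971% and the SOS2 libraries 0.343 ± 0.180%. PKS5 was 0.276 percentage points below the mean of the other baits (p = 0.0238, adjusted p = 0.0714 over the 3 baits, two-sided exact permutation test with 84 arrangements). That difference did not pass after adjustment for shares, but did pass for log2 shares, at a log2 difference of -2.05 (exact permutation p = 0.0119, adjusted p = 0.0357 over the 3 baits). The mitochondrial share alone had the same unadjusted values, p = 0.0238 for shares and 0.0119 for log2 shares (exact permutation tests). Adjusted over 6 comparisons these became 0.143 and 0.0714, so it passed on neither scale. The value of 0.0119 is the smallest that 84 arrangements allow. A single such value among 6 comparisons could not pass, so this outcome does not set the mitochondrial share apart from that of both genomes. SCAB1 stood 0.167 percentage points above the other baits (adjusted p = 0.304, exact permutation test) and SOS2 0.109 above (adjusted p = 0.440, exact permutation test), neither of which passed. For the chloroplast genome alone no bait passed, with adjusted p-values of 0.529 for PKS5, 0.940 for SCAB1 and 0.529 for SOS2 in exact permutation tests adjusted over 6 comparisons.

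The mitochondrial total was close to the count of 1 gene. ATMG00030 had 54963 reads, 97.9% of the reads of all 15 genes, and 92.7 to 99.6% of them in single libraries. By reads, which were not divided by gene length, it ranked 50 in mean CPM among all genes of the table and between 31 and 73 in single libraries. The other 12 mitochondrial genes had 1040 reads in all and summed to 64.4, 24.8 and 75.1 CPM in PKS5 at 0, 2 and 4 h, to 94.4, 27.1 and 25.6 CPM in SCAB1 and to 85.6, 63.5 and 20.4 CPM in SOS2. Without ATMG00030 and ATCG00440, the leading gene of each genome, the PKS5 share was 0.000174 percentage points above that of the other baits (exact permutation p = 0.952), so the low PKS5 share was that of ATMG00030.

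ATMG00030 stood at 913, 500.0 and 1019 CPM in the PKS5 libraries at 0, 2 and 4 h. It stood at 4351, 2675 and 4277 CPM in SCAB1 and at 2094, 2539 and 5473 CPM in SOS2. Every PKS5 library was below the lowest library of the other baits. Its means were 811 ± 274 CPM in PKS5, 3768 ± 947 CPM in SCAB1 and 3368 ± 1836 CPM in SOS2 (SD, n = 3 each), so in the order of levels SCAB1 and SOS2 did not differ beyond their spread.

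The fit across all genes (limma-voom, 3811 genes, all of them in the Benjamini-Hochberg adjustment) covered 5 of the 15 genes, and a gene was called at an adjusted p under 0.05. Those 5, ATMG00030, ATMG00040, ATMG01200, ATMG01090 and ATCG00440, had passed a filter of at least 4.74 CPM, which is 10 reads in a library of median size, in 3 or more libraries. For PKS5 against the other baits, 1 of the 5 was called, ATMG00030, which was lower (log2 difference -2.06, SE 0.54, adjusted p = 0.00498). Of all genes tested, 27.7% were called for PKS5, and 5.06% had all PKS5 libraries below every other library, as ATMG00030 did. The count of 1 among 5 is near the 27.7% called. The median log2 difference of the 5 genes was 0.20, beside -0.14 over all genes tested. The ATMG00030 call held in 17 of 18 alternative settings, with adjusted p-values by limma between 1.71e-06 and 0.410.

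The exception was the count of distinct reads, which the authors' header names unique reads and which was taken here as the number of different reads. ATMG00030 had 21, 18 and 19 distinct reads in PKS5 at 0, 2 and 4 h, 32 and 22 in SCAB1 at 0 and 2 h, and 28, 34 and 31 in SOS2. PKS5 again held the 3 lowest of the 8 usable values, but the distance to the others was small. On distinct reads the log2 difference for PKS5 was -0.22 (adjusted p = 0.410 by limma-voom). Reads per distinct read of ATMG00030 were 91.8, 84.1 and 112 in PKS5, 272 and 278 in SCAB1 and 164, 146 and 581 in SOS2. Whole libraries had 45.9 to 137 reads per distinct read. For ATMG00030 the PKS5 values of reads per distinct read lay below those of all other usable libraries. By distinct reads ATMG00030 ranked between 134 and 266 in its library.

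The share of distinct reads held by both genomes was 0.112, 0.127 and 0.122% in PKS5, 0.143 and 0.137% in SCAB1 at 0 and 2 h, and 0.102, 0.125 and 0.128% in SOS2. The PKS5 difference from the other baits was -0.00662 percentage points on this measure (exact permutation p = 0.536). Both usable SCAB1 libraries lay above the other 6, by 0.0205 percentage points on average (exact permutation p = 0.0714, adjusted p = 0.214, with 28 arrangements). The mean of the distinct-read share over the 8 libraries was 0.124 ± 0.0129% (SD).

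**Figure D2:**
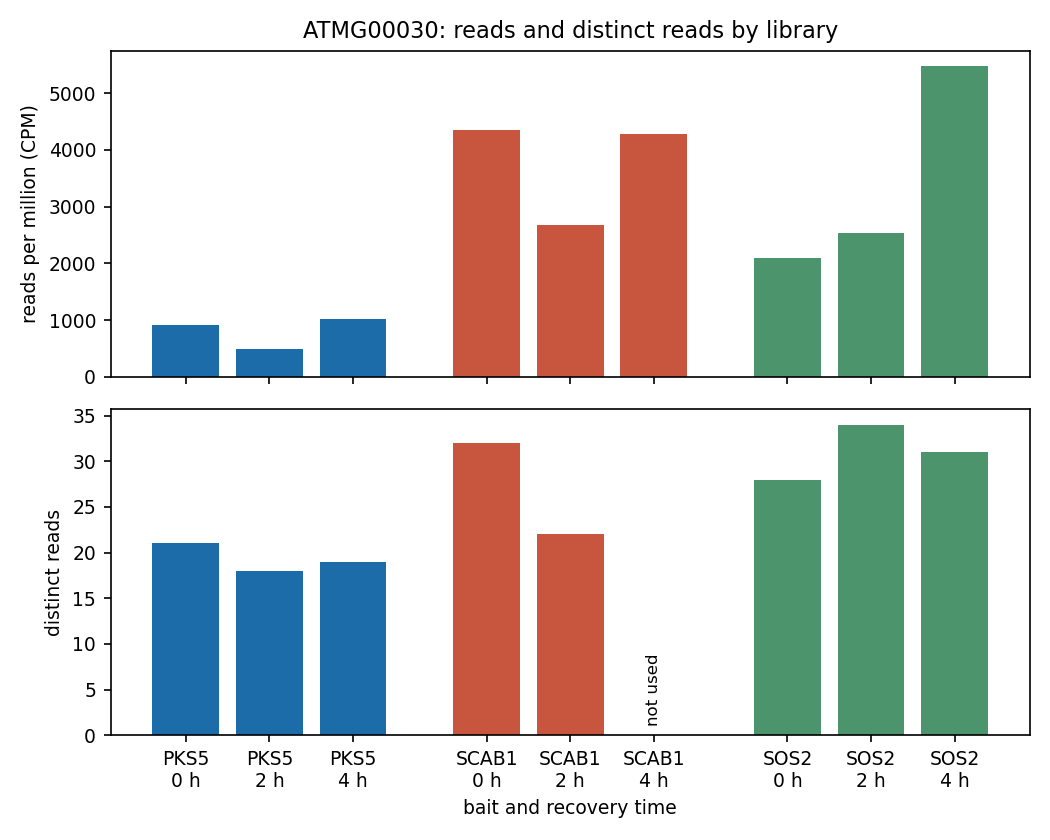
ATMG00030 by library, as CPM (upper bars) and as distinct reads (lower bars), with bait and recovery time on the x axis and both y axes starting at 0; each bar is 1 library. CPM in PKS5 reaches 1019 at most, against 2094 or more in the other baits, whereas distinct reads run between 18 and 34 in all; the distinct-read column of SCAB1 at 4 h could not be used.

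For SCAB1 against the other baits, ATMG00030 was again the 1 called gene of 5, and it was higher (log2 difference 1.59 with SE 0.59, limma-voom adjusted p = 0.0375), while 35.2% of all genes were called, again near the share of 1 in 5. Its SCAB1 values overlapped those of the other libraries, since SOS2 at 4 h was the highest of all. The mean that SCAB1 was set against holds the low PKS5 level. ATMG00030 averaged 811 CPM in PKS5 and 3368 CPM in SOS2, beside 3768 CPM in SCAB1. SCAB1 was not tested against SOS2 alone, so this call is not separate from that for PKS5. The call was lost in 9 of 18 alternative settings. Leaving out a library ended it for PKS5 replicate 1 (adjusted p = 0.0635), PKS5 replicate 3 (0.0669), SCAB1 replicate 2 (0.102), SCAB1 replicate 3 (0.212), SOS2 replicate 1 (0.0617) and SOS2 replicate 2 (0.116, all by limma-voom). It was also lost with relative log expression factors (adjusted p = 0.0667), with limma-trend (0.0524) and on distinct reads (0.185). The log2 difference ran between 0.35 and 2.18 over the 18 settings, and the median of the 5 genes was 0.64 beside -0.20 over all genes.

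For SOS2 against the other baits, ATMG00030 had a log2 difference of 0.47 (adjusted p = 0.582) and was not called, except with library size as the only scaling (log2 difference 0.93, adjusted p = 0.0318, both by limma-voom). The 1 called gene of 5 was ATMG01200, which was lower (log2 difference -0.89 with SE 0.34, limma-voom adjusted p = 0.0382), where 40.7% of all genes were called. ATMG01200 had 21.4, 14.3 and 6.08 CPM in SOS2 at 0, 2 and 4 h, against 16.6, 10.6 and 23.9 CPM in PKS5 and 37.5, 12.7 and 11.0 CPM in SCAB1. These values overlap between baits in each direction, and the means were 13.9 ± 7.67 CPM in SOS2 and 18.7 ± 10.5 CPM over the 6 other libraries (SD). Few distinct reads stood behind them. There were 2, 2 and 2 in PKS5, 3 and 2 in SCAB1 at 0 and 2 h, and 3, 2 and 2 in SOS2. The baits overlapped on this measure, and ATMG01200 was not tested on it.

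The ATMG01200 call was lost in 7 of 16 alternative settings. Without a scaling factor beyond library size the log2 difference was -0.47 (adjusted p = 0.767), without genes above 5% of a library it was -0.85 (0.435), and with no filter on low counts it was -1.03 (0.0698). It was also lost without PKS5 replicate 2 (adjusted p = 0.0851), PKS5 replicate 3 (0.0527), SCAB1 replicate 2 (0.0662) or SOS2 replicate 1 (0.0577). The median log2 difference of the 5 genes for SOS2 was -0.07, beside 0.16 over all genes.

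ATMG01200 was also one of a pair of mitochondrial genes whose counts almost repeated those of a nuclear gene. AT2G07698, in the stretch of identifiers on chromosome 2 that covers the mitochondrial insertion, had 345 reads beside 334 for ATMG01200. Library by library, ATMG01200 had 35, 32 and 50 reads in PKS5, 75, 29 and 18 in SCAB1 and 47, 28 and 20 in SOS2 at 0, 2 and 4 h. AT2G07698 had 40, 34 and 52 reads in PKS5, 75, 29 and 18 in SCAB1 and 48, 29 and 20 in SOS2. The counts were equal in 4 of 9 libraries, and AT2G07698 was higher by at most 5 reads in the others. Summed over libraries the absolute difference was 3.29% of the ATMG01200 reads, against 13.8% for the next closest nuclear gene of the table, p24beta2. For SOS2, AT2G07698 had a log2 difference of -0.92 (adjusted p = 0.0304 by limma-voom).

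ATMG01090 and AT2G07777, from the same stretch, formed the other pair, with 159 and 140 reads. ATMG01090 had 30, 9 and 18 reads in PKS5, 48, 7 and 5 in SCAB1 and 15, 15 and 12 in SOS2 at 0, 2 and 4 h. AT2G07777 had 28, 8 and 18 reads in PKS5, 42, 7 and 4 in SCAB1 and 13, 12 and 8 in SOS2. AT2G07777 was never above ATMG01090 and at most 6 reads below it, a summed difference of 11.9%, against 24.5% for the next closest gene. For SOS2, ATMG01090 was not called (log2 difference -0.92, adjusted p = 0.106), while AT2G07777 was (log2 difference -1.16, adjusted p = 0.0469, both by limma-voom). The sources used here do not say how reads that match several places were counted, and whether the same reads were counted for both genes was not tested. Of the 8 usable libraries, distinct reads were equal in 3 for ATMG01200 and AT2G07698. They were equal in 2 for ATMG01090 and AT2G07777. The table held 5 genes of that stretch, and the other 3, AT2G07671, MCM5 and AT2G07718, had 2, 15 and 1 reads. For the other mitochondrial and chloroplast genes read in all libraries, the closest nuclear gene differed by 11.5 to 40.6%, and it lay outside that stretch. The 11.5% was that of ATMG00040 and AT2G46490, which were thus closer by this measure than ATMG01090 and AT2G07777.

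**Figure D3:**
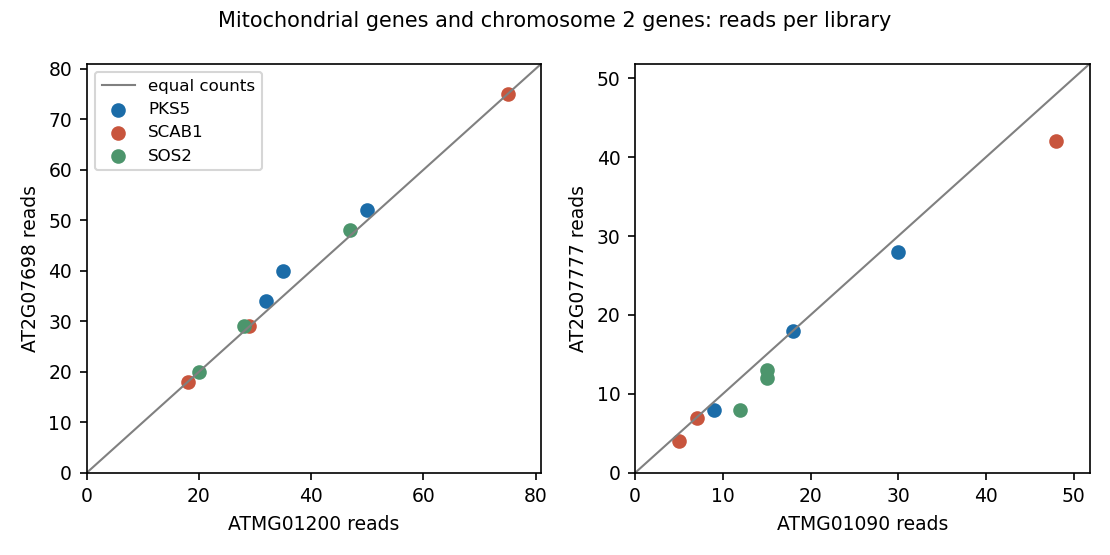
Reads per library of ATMG01200 against AT2G07698 (left) and of ATMG01090 against AT2G07777 (right); each point is 1 library, coloured by bait, and the line marks equal counts. Points on the left lie on the line or up to 5 reads above it, and those on the right on the line or up to 6 reads below it.

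ATMG00040 had the second highest mean of the organelle genes, 19.7 ± 14.0 CPM (SD over 9 libraries). It stood at 21.3, 9.25 and 27.3 CPM in PKS5 at 0, 2 and 4 h, at 20.0, 5.25 and 7.93 CPM in SCAB1 and at 45.5, 34.3 and 6.69 CPM in SOS2. No bait was called for it, with adjusted p-values of 0.551 for PKS5, 0.192 for SCAB1 and 0.534 for SOS2 by limma-voom. The groups overlapped, and the libraries at 2 and 4 h held both the second highest and the lowest value. Only 2 to 5 distinct reads stood behind the counts of a usable library.

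ATMG01090, described above by its reads, averaged 8.23 ± 6.97 CPM over the 9 libraries. It was highest in SCAB1 at 0 h, at 24.0 CPM, and lowest in PKS5 at 2 h, at 2.97 CPM. A usable library held 1 to 5 distinct reads of it. The adjusted p of ATMG01090 was 0.677 for PKS5 and 0.327 for SCAB1 by limma-voom.

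ATCG00440 carried the chloroplast genome, with 107 of its 112 reads. It stood at 7.11, 0.661 and 4.31 CPM in PKS5, at 10.5, 2.62 and 4.27 CPM in SCAB1 and at 12.3, 8.19 and 1.22 CPM in SOS2 at 0, 2 and 4 h. Only 1 or 2 distinct reads stood behind these counts in each of the 8 usable libraries. The log2 differences were -0.58 for PKS5 (adjusted p = 0.511), 0.64 for SCAB1 (adjusted p = 0.341) and -0.07 for SOS2 (adjusted p = 0.941, all by limma-voom), and none was called.

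ATMG01410 and ATMG01220 were also read in all 9 libraries but at lower levels, and neither entered the fit. ATMG01410 ran between 0.330 CPM in PKS5 at 2 h and 6.63 CPM in PKS5 at 0 h, and ATMG01220 between 0.610 CPM in SCAB1 at 4 h and 9.09 CPM in PKS5 at 4 h. Each was highest in a PKS5 library, and the baits overlapped for both. With these, 7 of the 15 genes had a read in every library, and 3894 of the 10209 nuclear genes (38.1%) did.

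The other 8 genes were traces. ATCG00550, the other chloroplast gene, had 5 reads, 1 in SOS2 at 0 h and 4 in SOS2 at 4 h, and was at 0 elsewhere. ATMG00050 and ATMG00690 had 9 reads each, in 6 libraries, and ATMG00830 had 6 reads in 4 libraries. ATMG00090 had 2 reads, ATMG01080 had 2, ATMG00180 had 1 and ATMG00590 had 1, each in a single library. Of these 4 single-library genes, 3 were seen in SOS2 and ATMG00180 in PKS5. Apart from ATCG00550, none of the 8 exceeded 3 reads in any library, the level that a count of 0 elsewhere allows, so differences between baits were not detectable for them at this depth.

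**Figure D4:**
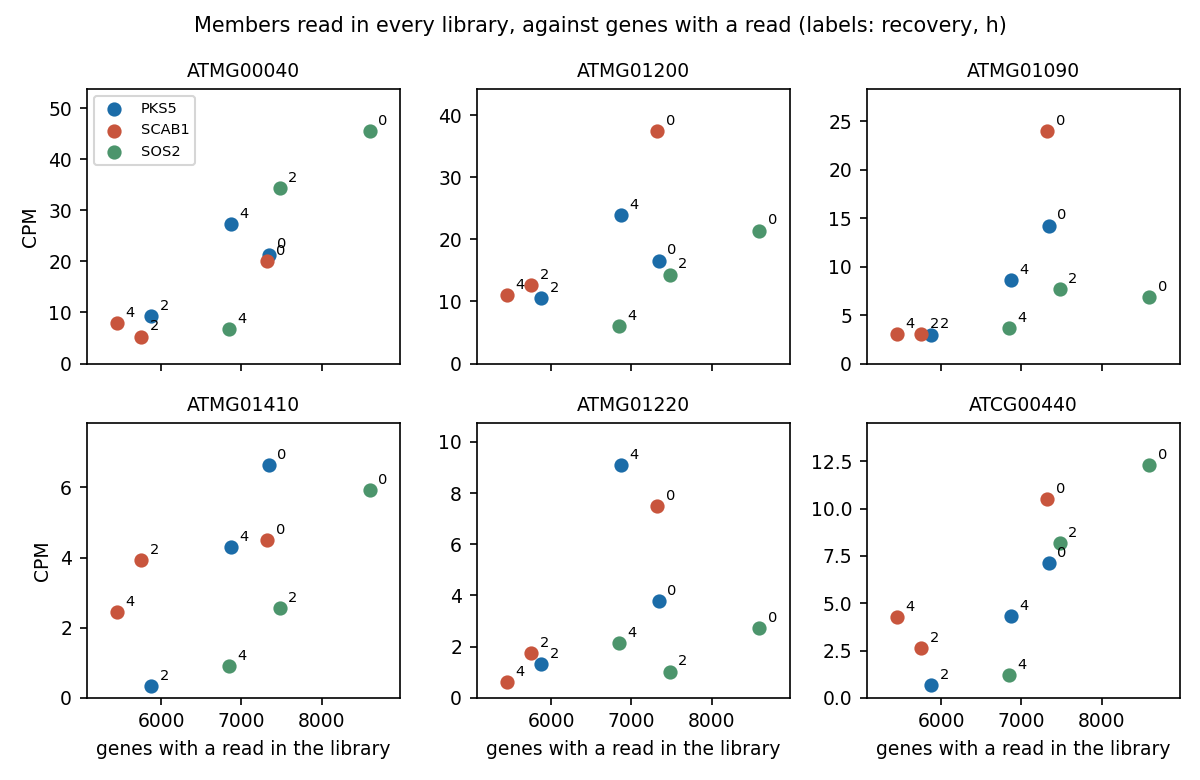
CPM of the 6 genes below ATMG00030 that were read in every library, each in a panel of its own with a y axis starting at 0, against the number of genes with a read in the library; each point is 1 library, coloured by bait and labelled with its recovery time in hours. ATMG00040 is highest, at 45.5 CPM, in the library with the most genes read (8594), while ATMG01220 is highest in PKS5 at 4 h, at 9.09 CPM.

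The number of genes with a read moved with several of these values. It was 7344, 5879 and 6868 in PKS5, 7321, 5753 and 5450 in SCAB1 and 8594, 7479 and 6845 in SOS2 at 0, 2 and 4 h, so the 0 h library was the highest of each bait. Across the 9 libraries its Pearson correlation with log2(CPM + 1) was 0.85 for ATMG00040, 0.71 for ATCG00440, 0.62 for ATMG01090, 0.51 for ATMG01410 and 0.49 for ATMG01200, but 0.02 for ATMG00030. These are descriptions over 9 libraries that share baits and depth, and the part of library breadth in the values of single genes was not tested. Among the 5 tested genes, ATMG00030 followed none of the others, with correlations between -0.22 and 0.22, while the other 4 correlated with each other at 0.64 to 0.81.

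For recovery time, none of the 3811 genes tested was called at 2 and 4 h against 0 h with bait as a block (0% by limma-voom and 0 by limma-trend, 0 of the 5 organelle genes), and 378 genes had an unadjusted p under 0.05, of which ATMG00030 was one. With no filter on low counts, 1 of 10224 genes was called, and it was no organelle gene. ATMG00030 had a log2 difference of 1.25 (SE 0.41, adjusted p = 0.296). Without PKS5 replicate 3 the difference was 1.61 and passed (adjusted p = 0.0243 by limma-voom). It was 0.75 without SOS2 replicate 1, 0.24 with library sizes that left out genes above 5%, 0.35 on distinct reads and 0.09 with library size alone, and in none of these did it pass. In CPM it was not higher in all baits. The changes at 2 and 4 h against the 0 h library were 445 and 3379 CPM in SOS2, -1676 and -73.9 CPM in SCAB1, and -413 and 106 CPM in PKS5. The library at 0 h had the largest TMM factor of its bait in SCAB1 and SOS2, at 1.72 and 2.40, and the fitted difference is relative to these factors.

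The share of both genomes averaged 0.254 ± 0.176% at 0 h, 0.195 ± 0.123% at 2 h and 0.363 ± 0.227% at 4 h (SD, n = 3 each). The later libraries stood 0.0246 percentage points above 0 h on average (exact permutation p = 0.815, labels permuted within bait, 27 arrangements). The chloroplast genome was at 10.1 ± 2.84 CPM at 0 h, 3.83 ± 3.91 CPM at 2 h and 3.67 ± 1.07 CPM at 4 h, and both later libraries were below the 0 h library in all 3 baits. That difference was -0.000637 percentage points (exact permutation p = 0.0370, the smallest that 27 arrangements allow, adjusted p = 0.111 over 3 comparisons), and it did not pass after adjustment. On distinct reads it was 9.15e-06 percentage points (exact permutation p = 1.0). The 12 mitochondrial genes other than ATMG00030 summed to 81.5 ± 15.4 CPM at 0 h, 38.5 ± 21.7 CPM at 2 h and 40.4 ± 30.2 CPM at 4 h. All 2 h libraries lay below the 0 h libraries, and those at 4 h overlapped them through PKS5, at 75.1 CPM. As a share of reads, the later libraries stood -0.00421 percentage points from 0 h for these 12 genes (exact permutation p = 0.148, adjusted p = 0.222), which did not pass. By limma-voom with library size alone, the median log2 difference for recovery was -1.20 over all 3811 genes tested. On that scale it was -1.87 for ATCG00440, -1.23 for ATMG00040, -1.58 for ATMG01090 and -0.98 for ATMG01200. Lower CPM at 2 and 4 h was thus not particular to organelle genes.

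**Figure D5:**
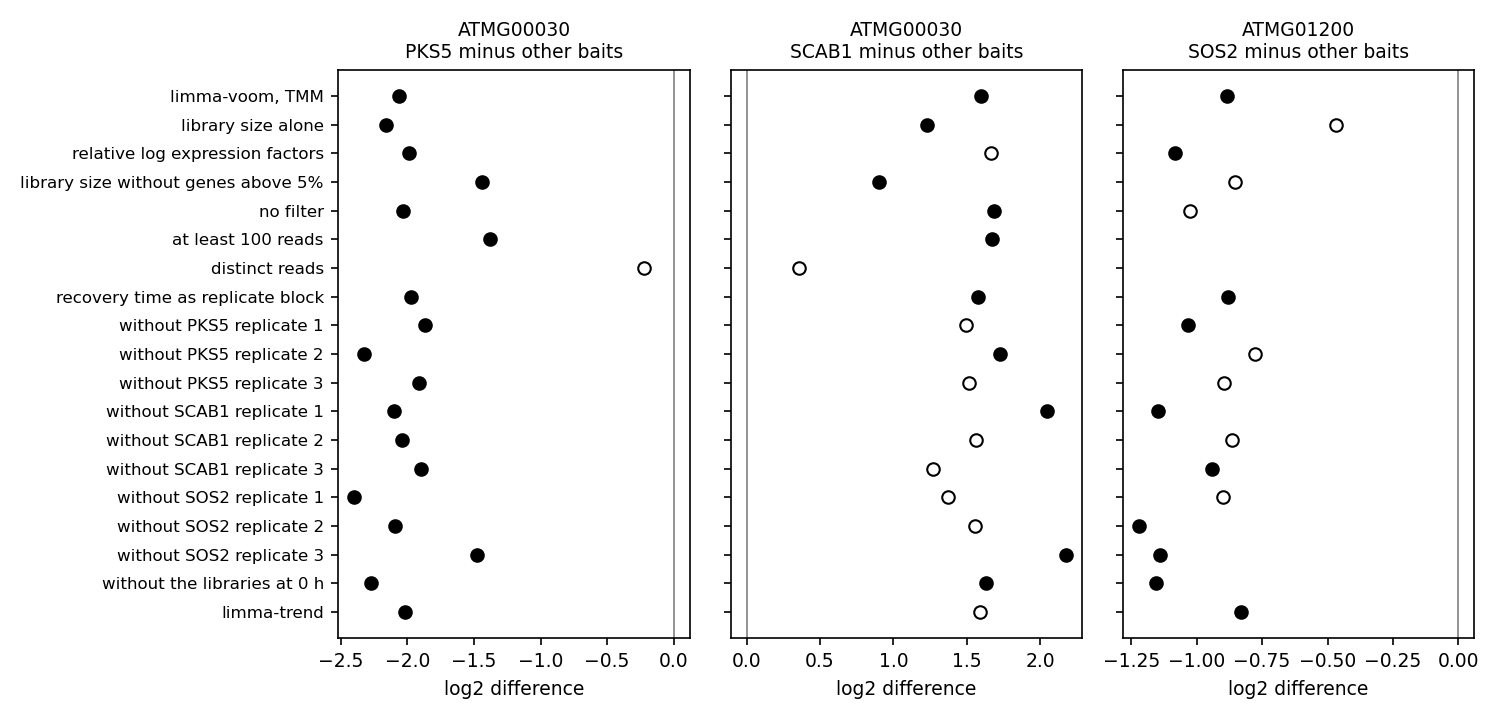
Log2 difference of the 3 calls under limma-voom with TMM factors (top line) and under each alternative setting, as named on the left; the x axes are log2 units, the vertical line marks 0, and filled points have an adjusted p under 0.05. ATMG00030 in PKS5 is open for distinct reads alone, ATMG00030 in SCAB1 is open in 9 settings and ATMG01200 in SOS2 in 7, and a setting in which a gene was not tested has no point.

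For the leading organelle genes, the 3 tested genes with the highest Pearson correlation of log2(CPM + 1) over the 9 libraries were listed. Closest to ATMG00030 were AT5G65610 (0.97), PYL1, an abscisic acid receptor (0.95), and AT4G15160 (0.94). Closest to ATMG00040 were AT3G48020 (0.99), GRP2, a glycine-rich RNA-binding protein (0.98), and AT1G80440 (0.98). ATCG00440 was followed by AT5G45670, AT5G54940 and AT1G02305 (0.98 each). ATCG00550, a trace, was followed less closely by ARAD1 (0.85), AT4G32480 (0.82) and FASS (0.82). It had 5 reads in all, in 2 libraries, and its correlations rest on those 2. For ATMG01200 and ATMG01090 the closest genes were those of chromosome 2 named above (1.00 and 0.99), followed by p24beta2 (0.99) and MUM2 (0.97) and by emb1211 (0.96) and AT4G22235 (0.95). ATMG01410 was followed by AT5G06940 (0.98), RAB1A, a small GTPase of vesicle transport (0.96), and AT4G23880 (0.96). They are given as descriptions, since the libraries share baits and depth.

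Nuclear genes for subunits of the complexes that organelle genomes help to build were also counted, from a list of 10 mitochondrial and 14 chloroplast genes. All 10 mitochondrial ones were in the table and 9 were tested. For PKS5, 0 were higher and 3 lower. For SCAB1, 2 were higher and 2 lower. For SOS2, 4 were higher and 1 lower. With 27.7, 35.2 and 40.7% of all genes called for these baits, such counts out of 9 are near the background. The median log2 differences of these 9 were -0.43 for PKS5, -0.63 for SCAB1 and 0.53 for SOS2, beside -0.14, -0.20 and 0.16 over all genes, and none was called for recovery time. ATP3, the gamma subunit of the mitochondrial ATP synthase, averaged 83.4 ± 29.0 CPM in the SOS2 libraries, against 9.08 ± 5.87 CPM in those of PKS5 and 7.53 ± 6.19 CPM in those of SCAB1 (SD, n = 3 each). Its log2 difference for SOS2 was 3.08 (adjusted p = 8.62e-07 by limma-voom). EMB1467, a subunit of respiratory complex I, had 53.3 ± 38.3 CPM in SOS2, 41.4 ± 23.7 in PKS5 and 29.6 ± 24.9 in SCAB1 and was called for no bait. CI51, the 51 kDa subunit of the same complex, averaged 4.56 ± 1.25 CPM in SOS2 and 0.268 and 0.719 CPM in PKS5 and SCAB1, and was not tested. ATPQ, the d subunit of the ATP synthase, averaged 44856 ± 5566 CPM in the SCAB1 libraries, against 22.3 ± 10.5 CPM in those of PKS5 and 31.0 ± 16.7 CPM in those of SOS2. Its log2 difference was 11.21 for SCAB1, and the lower calls for PKS5 (-5.70) and SOS2 (-5.51) hold the same SCAB1 level in the mean they were set against. The other listed ATP synthase genes, AT5G08670, AT5G08680 and AT5G08690, were listed as ATP2, ATP2-2 and ATP2-3. Their log2 differences did not share a direction, though not all of them were called. For SOS2 the log2 differences were 4.95 for AT5G08690, 3.18 for AT5G08680 and -0.96 for AT5G08670. The last was not called (adjusted p = 0.103 by limma-voom). AT5G08680 averaged 0.59 CPM in PKS5 and 1.14 CPM in SCAB1, beside 13.2 CPM in SOS2. It thus passed the filter only through the SOS2 libraries. Its calls for SOS2 (higher) and PKS5 (lower) are in the counts above and are no support for a difference. For SCAB1 the log2 differences were -4.52 for AT5G08690, -0.90 for AT5G08680 and 2.14 for AT5G08670. That of AT5G08680 was not called (adjusted p = 0.318 by limma-voom).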

How the data were processed

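Prey inserts of 9 libraries were counted by the authors. Inserts were amplified by PCR from yeast plasmids and sheared, per the labels' protocols, and those fragments that carried 29 bp of vector were enriched and sequenced from both ends. TAIR10 is the genome in the submitters' processing notes, with HISAT2, CASAVA and cutadapt 1.18 as tools. The sources used here do not state how reads that match several places were counted. For each gene and library the authors deposited 2 values, named in the file headers as read count and unique reads (distinct reads here), not normalized; a text mark in place of 0 was read as 0. Distinct reads of SCAB1 replicate 3 were left out: 10224 of 10224 values equal those of SCAB1 replicate 2, and 1429 genes had more distinct reads than reads.

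Members were chosen by identifier, and members, lists and tests were chosen with earlier results of these data known. Names came from a RefSeq table of another assembly version (TAIR10.1), in which 10201 identifiers were found and 23 were not. Because of the marks for empty cells the table was not treated as plain counts by a check of units, and limma-voom (limma 3.58.1 in R 4.3.3) was used, with TMM factors (trimming 30% of M and 5% of A values, range 0.438 to 2.40), an offset of 0.5 and robust variances. Genes needed 4.74 CPM in 3 libraries and 15 reads in all, which left 3811. A bait's mean was set against the mean of the other baits, so these comparisons share libraries. Single values were compared by exact permutation tests over libraries (Python 3.11.15, scipy 1.17.1). Alternatives changed the scaling, filter, read column, block, test and libraries. Replicate numbers are recovery times; same-numbered libraries of different baits correlated at -0.02 to 0.22 in their deviations, so the numbers were not taken to pair libraries. The genes named are, in each genome, the 10 with the highest mean CPM, every called gene, the 3 genes most like each of the 5 highest, the chromosome 2 genes AT2G07662 to AT2G07835 and the listed subunits; the other traces and the examples of subunits were named after their values were seen.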

Additional observations from a re-analysis of the deposited data

Results flagged for a closer look

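As shares of library reads, the later libraries moved in opposite directions in SOS2 and SCAB1. In SOS2 both later libraries held more mitochondrial reads than the 0 h library, and in SCAB1 both held fewer. For ATMG00030 the mean change of the later libraries was 1912 CPM in SOS2 and -875 CPM in SCAB1, a difference of 2787 CPM. For the mitochondrial share the changes were 0.187 percentage points in SOS2 and -0.0943 in SCAB1, a difference of 0.281, and for both genomes together the difference was also 0.281. The difference between the baits was not tested, because each bait has 1 library at each time. With CPM divided by the TMM factors the directions were alike, since ATMG00030 then stood at 872, 2358 and 7702 in SOS2 and at 2530, 4741 and 6643 in SCAB1 at 0, 2 and 4 h. In PKS5, by shares, the 2 h library was below and the 4 h library above the 0 h library.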

How the results depend on the processing

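The higher mitochondrial than chloroplast share kept its direction and its call in all 14 alternatives. Since it was higher in every library, leaving out a library could not end the call. Nor could log2 shares, another library total or chromosome 2 genes added to the mitochondrial side. In the alternative without the leading genes the chloroplast side was ATCG00550 alone, at 0 in 7 of 9 libraries. That one could hardly have come out otherwise, so these alternatives add no separate support. The ATMG00030 call for PKS5 was lost on distinct reads alone, and the other calls in the settings named above. The numbers of called members for SCAB1 and SOS2, 1 each, were 0 and 2 with relative log expression factors. For SOS2 the number was 0 without genes above 5% of a library, 0 with no filter and 0 at 100 reads, where ATMG00030 alone was tested. On distinct reads it was 0 for each bait, again with 1 member tested, and with limma-trend 0 for SCAB1. With library size alone the 1 member called for SOS2 was ATMG00030 in place of ATMG01200. Leaving out single libraries gave 0 to 2 called members for SCAB1, 0 to 2 for SOS2, 1 for PKS5 and 0 to 1 for recovery.

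On distinct reads the SOS2 differences changed sign, at -0.00979 percentage points for both genomes and -0.0114 for the mitochondrial one, and the recovery difference of the chloroplast genome was 9.15e-06. Without ATMG00030 and ATCG00440 the differences were 0.000174 for both genomes and 0.000201 for the mitochondrial one in PKS5, and -0.000687 and -0.000659 in SCAB1. The recovery differences were then -0.00420 for both genomes, -0.00421 for the mitochondrial and 5.09e-06 for the chloroplast genome. With log2 shares, PKS5 passed at -2.05, and the chloroplast difference for SCAB1 was 0.24. Leaving out single libraries moved that SCAB1 difference between -0.000246 and 0.000147 percentage points, and the recovery difference between -0.0561 and 0.0844 for both genomes and between -0.0555 and 0.0850 for the mitochondrial one.

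Uncalled log2 differences of single genes also changed sign, and the cause was not tested. With library size alone ATCG00440 stood at 0.36 for SOS2, and ATMG00040 and ATMG01200 at -1.23 and -0.98 for recovery; without genes above 5% the recovery values were -1.06 and -0.82 and ATMG01090 stood at -0.32 for SCAB1. ATMG00030 for SOS2 was -0.29 at 100 reads and -0.13 on distinct reads, ATMG00040 for SOS2 -0.038 without the libraries at 0 h, and ATCG00440 for SOS2 0.017 with limma-trend. Leaving out single libraries, the SOS2 values ran between -0.44 and 0.12 for ATCG00440, -0.70 and 1.03 for ATMG00030 and -0.20 and 0.43 for ATMG00040. For recovery they ran between -0.16 and 0.31 for ATMG00040 and -0.99 and 0.20 for ATMG01090, and for PKS5 between -0.0084 and 0.51 for ATMG01200.

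Scaling moved the median of all genes. For recovery it was 0.08 with TMM, -1.20 with library size alone and -1.03 without genes above 5%, where 352 and 89 genes were called, all lower. All-gene calls for PKS5 were then 679 and 575 (226 of 575 higher), against 1054 (229 higher). SCAB1 had 830 and 1131 (325 of 1131 higher), against 1342 (552 higher), and SOS2 had 1042 with library size alone (886 higher), against 1552 (1033 higher). On distinct reads, with 872 genes tested, calls were 205, 220 and 316, at 100 reads 771, 814 and 987, and without the 0 h libraries 890 for SCAB1. Recovery had 1 call with no filter, 19 at 100 reads, 38 without PKS5 replicate 3 and 1 without PKS5 replicate 1. With recovery time as a replicate block, the number of called members was 1 for each bait, and calls over all genes were 1181, 1510 and 1660. The difference for PKS5 in the share of both genomes was again -0.276 percentage points (exact permutation p = 0.0370). It did not pass after adjustment over the 3 baits. Of 9 libraries 2 correlated best with their own number. A version without ribosomal and transfer RNA genes was not run, since the identifiers are not annotated, and no functional groups could be formed for the same reason. Depth limits 10 of the 15 genes to a description.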

Other observations

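The list of nuclear partner genes gave different coverage for the organelles. All 10 listed mitochondrial partners were in the table used here, and 0 of the 14 listed chloroplast partners were. A wider look, chosen after that was seen, went through all genes whose RefSeq symbol names a light-harvesting protein, a photosystem subunit or the small subunit of Rubisco. The table used here held 0 of 13 light-harvesting genes, 1 of 12 photosystem I genes, 0 of 10 photosystem II genes and 0 of 4 Rubisco small subunit genes. The 1 gene held was PSAO, photosystem I subunit O, with 82059 reads, more than the 15 organelle genes together. PSAO averaged 3461 ± 1060 CPM in PKS5, 2952 ± 1542 CPM in SCAB1 and 5491 ± 1143 CPM in SOS2 (SD, n = 3 each). The other genes of those lists were not analysed here.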
